A study of Homo sapiens with 12 samples.

Results

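Ribosome biogenesis and nucleolar genes were followed by symbol through PC9 cells given gefitinib alone or beside fibroblasts. The list held 39 genes in 6 roles, and a gene entered when a probe named for it had a detection p-value under 0.05 on 3 or more of 12 arrays. That left 35 of 39 genes, with 54 probes, among 13514 genes tested in all. WDR43, GNL3 and EBNA1BP2 are unnamed in the probe annotation used here. The 1 probe named for NPM1, a nucleolar chaperone, was detected on 1 of 12 arrays, and its near-identical pseudogenes make its measurement uncertain in any case.

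PC9 is a human lung adenocarcinoma line whose mutated EGFR drives growth, and gefitinib blocks the EGFR kinase. Total RNA from PC9 was hybridised to 12 Illumina bead arrays in 4 groups of 3: cells alone with DMSO, cells alone with 0.5 µM gefitinib, cells co-cultured with MRC-5 lung fibroblasts, and cells co-cultured and given 0.5 µM gefitinib. The labels place gefitinib after 24 h and the co-culture at 48 h through inserts with 1 µm pores in medium with 10% FCS. Arrays had mean signals of 370.9 to 443.8 intensity units and 20917 to 22820 detected probes. Every sample came from the same line, which limits the groups as a model. The labels do not say that the 3 samples of a group were separate cultures, so the p-values measure the spread between these samples, which may be technical. The titles of the co-culture samples carry a suffix, WH, that no label explains. The labels used here also leave unsaid which medium the monocultures had, whether the co-culture without drug had a vehicle, and whether the drug stayed on during co-culture. Of 10 epithelial markers 9 were measured, and their summed intensity was 28900 to 31400 with DMSO, 36400 to 38000 with gefitinib alone, 28700 to 30800 in co-culture and 31700 to 33000 in co-culture with gefitinib.

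Ribosomes are assembled in the nucleolus, where RNA polymerase I transcribes the rRNA precursor. Small nucleolar RNPs guide the methylation and pseudouridylation of that precursor, and assembly factors then cleave, fold and export the small and the large subunit separately. Many of these factors are known targets of the transcription factor MYC, and their output follows growth factor signalling in proliferating cells.

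MYC with its partner MAX binds the E-box CACGTG, a palindrome that reads the same on both strands. The promoters of 33 of the 39 genes were found in RefSeq (GRCh38.p14), as windows from 250 bases before to 50 after the transcript start. NOP58, RRP12, BOP1, RRS1, RRP1B and NOLC1 had no entry. The 4 stretches printed here run from 100 bases before the start through the first 30 transcribed bases, 5′ to 3′ on the gene's own strand. They show genes described further on whose E-box, in capitals, lies close to the start. Counted from the start, its first base is at 15 in MRTO4, 16 in NOP14, 7 in FBL and -5 in RRP9.
MRTO4 (chr1:19251705-19251834, + strand): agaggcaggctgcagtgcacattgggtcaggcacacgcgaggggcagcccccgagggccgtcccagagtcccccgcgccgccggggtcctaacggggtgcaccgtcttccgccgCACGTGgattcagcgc
NOP14 (chr4:2963377-2963506, - strand): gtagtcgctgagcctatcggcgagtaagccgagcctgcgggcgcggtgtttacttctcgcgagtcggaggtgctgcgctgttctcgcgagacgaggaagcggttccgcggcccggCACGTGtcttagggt
FBL (chr19:39846350-39846479, - strand): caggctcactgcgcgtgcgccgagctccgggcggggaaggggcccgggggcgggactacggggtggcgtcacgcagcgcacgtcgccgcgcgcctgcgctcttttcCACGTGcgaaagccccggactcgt
RRP9 (chr3:51941875-51942004, - strand): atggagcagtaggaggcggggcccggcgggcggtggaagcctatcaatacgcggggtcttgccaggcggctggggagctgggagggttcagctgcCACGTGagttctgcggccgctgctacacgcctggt

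An E-box stood in 13 of 33 of these promoters (39.4%), against 7.43% of 27305 RefSeq promoters of the same length and 9.89% of those of genes tested. Its first base lay within 50 bases of the start in 12 of 33 (36.4%), against 4.11% of the promoters of genes tested. Among the other 112 biogenesis genes with an entry 21.4% had one that close, and among 60 cytosolic ribosomal protein genes 1.67%. Another motif, CCGGAAG, the core bound by ETS factors, was searched on both strands. It stood in 30.3% of the 33 promoters and 43.8% of those of the other 112 biogenesis genes. The shares were 17.8% for the promoters of genes tested and 33.3% for those of ribosomal protein genes. The letters of both motifs cannot overlap, and a match describes the window only. The lists were chosen from what is known of the pathway, so the shares describe known genes.

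**Figure D1:**
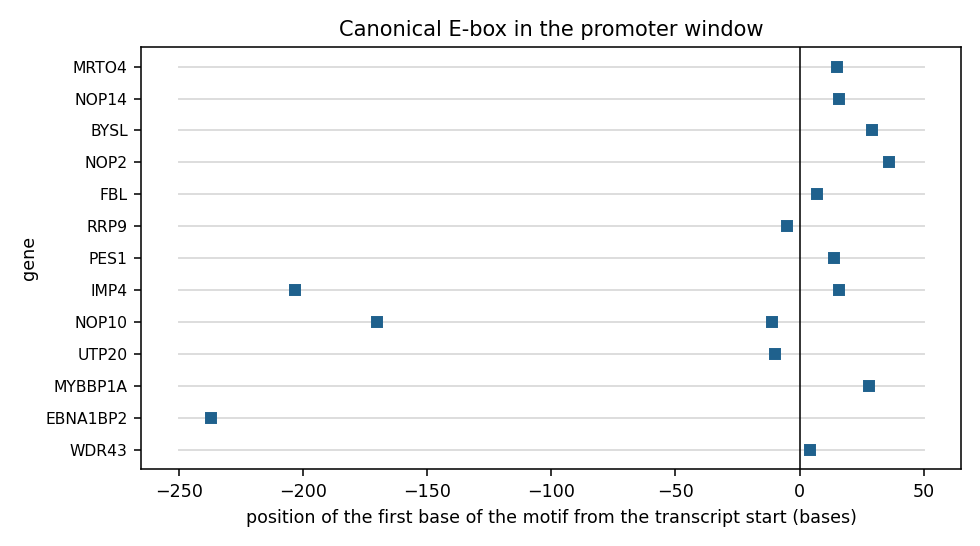
Position of each E-box in the promoter windows of the 13 genes that hold one; the horizontal axis is the distance in bases from the transcript start to the motif's first base, and each square is 1 motif. In 12 genes a square lies within 50 bases of the start, and EBNA1BP2 has its square at -237.

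The first comparison asked how these genes responded to gefitinib in PC9 grown alone. Of 35 genes 27 fell (77.1%) and 0 rose, while 19.7% of all genes fell and 21.1% rose. The median log2 change was -0.63, against 0 over all genes. Levels here are log2 intensities after background correction and quantile normalization, and a change is called where the limma test's adjusted p, by Benjamini-Hochberg over all 13514 genes, is under 0.05. In 29 of the 35 genes the gefitinib arrays lay below the DMSO arrays without overlap, and in 0 above. Over all genes this held for 24.3% downward and for 25.7% upward. The 27 called genes are among the 29, but they were picked for their fall on the same arrays. In bulk RNA, fewer cells expressing a gene and less RNA per cell cannot be told apart. The mean level over the 35 genes was 9.12 ± 0.0281 (SD, n = 3) with DMSO and 8.49 ± 0.018 with gefitinib.

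**Figure D2:**
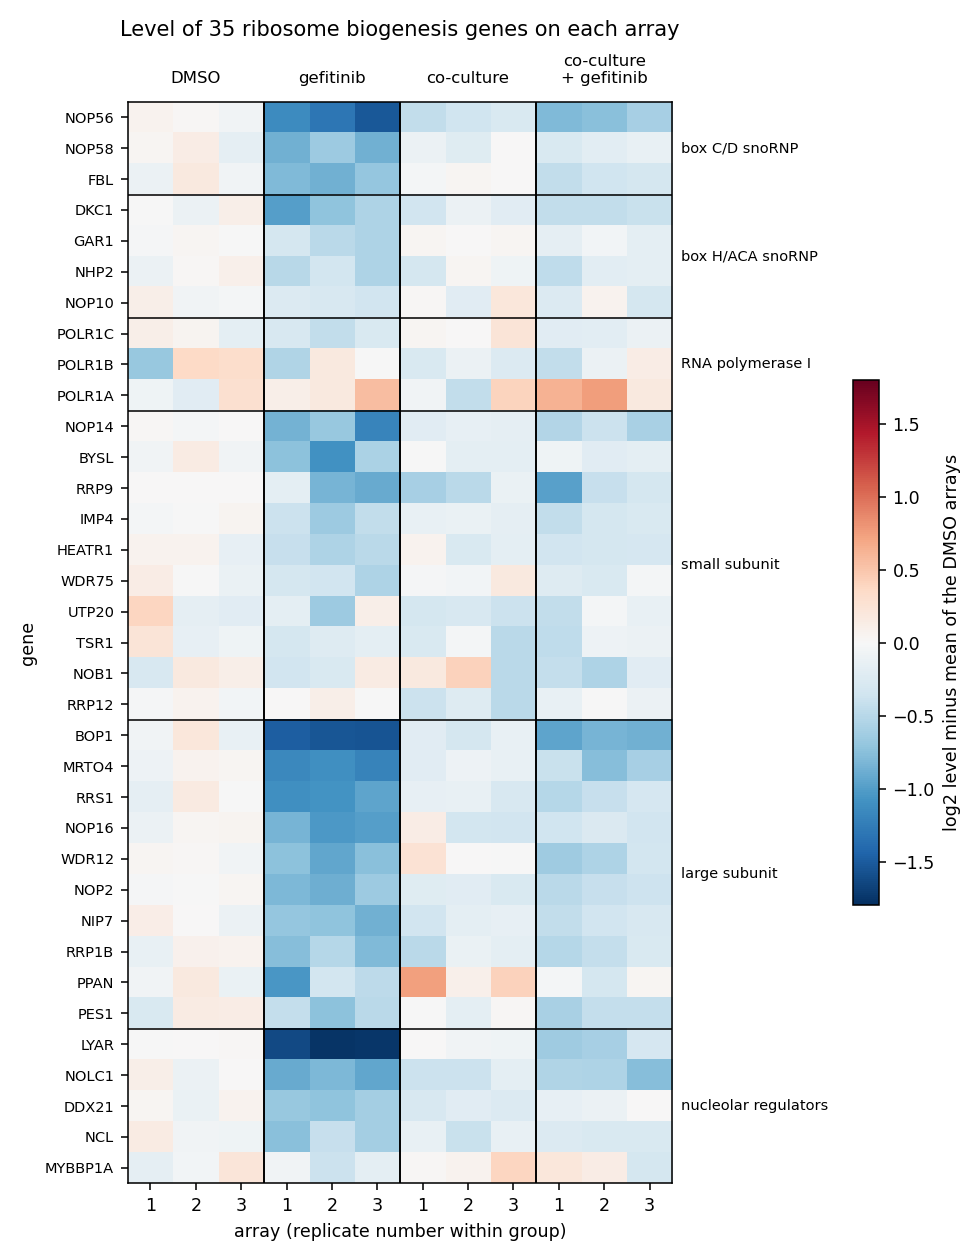
Level of the 35 measured genes (rows, by role) on each of the 12 arrays (columns, by group and replicate number), as the log2 level minus the mean of the 3 DMSO arrays. The gefitinib columns are bluest, with the lowest values in LYAR, BOP1 and NOP56, and the co-culture columns with gefitinib lie between them and the DMSO columns for most rows.

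All 3 genes of the box C/D snoRNPs, the particles that methylate rRNA, fell. NOP56, a core scaffold protein of these particles, stood at log2 levels of 11.65, 11.61 and 11.52 with DMSO, 10.46, 10.29 and 10.07 with gefitinib, 11.14, 11.23 and 11.31 in co-culture, and 10.79, 10.84 and 10.99 in co-culture with gefitinib. Its 4 groups did not overlap, and the drugged monoculture was lowest. It fell by 1.32 ± 0.11 (SE) on the log2 scale, to 40.1% of the DMSO level (limma adjusted p = 2.96e-06). FBL, fibrillarin, the methyltransferase of the particle, stood at 11.56, 11.83 and 11.6 with DMSO, 10.87, 10.79 and 10.96 with gefitinib, 11.63, 11.7 and 11.67 in co-culture, and 11.21, 11.3 and 11.34 in co-culture with gefitinib. Both drugged groups lay below both undrugged groups, and the monoculture lay lower. The log2 change of FBL was -0.79 ± 0.10 (adjusted p = 4.73e-05), and that of NOP58, the other scaffold protein, was -0.80 ± 0.11.

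Of the 4 proteins of the box H/ACA snoRNPs, which convert uridine to pseudouridine, 3 fell. The changes were -0.76 ± 0.12 for DKC1, the pseudouridine synthase dyskerin, -0.46 ± 0.09 for GAR1 and -0.46 ± 0.12 for NHP2, both partners of dyskerin. Fitted by single probes, the dimmer probes of GAR1 fell by 1.14 ± 0.21, 1.09 ± 0.13 and 0.50 ± 0.14, more than its brightest. NOP10, the smallest of these proteins, had log2 levels of 12.5, 12.32 and 12.35 with DMSO, 12.14, 12.1 and 12.04 with gefitinib, 12.41, 12.19 and 12.6 in co-culture, and 12.14, 12.46 and 12.07 in co-culture with gefitinib. The drugged monoculture lay below the DMSO arrays without overlap, but the change of -0.30 ± 0.13 did not pass (adjusted p = 0.0878).

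RNA polymerase I subunits had the median change nearest to 0 of the 6 roles, -0.12, with 1 of 3 lower. POLR1C, a subunit shared with RNA polymerase III, stood at 9.77, 9.72 and 9.5 with DMSO, 9.38, 9.22 and 9.39 with gefitinib, 9.71, 9.67 and 9.9 in co-culture, and 9.47, 9.48 and 9.56 in co-culture with gefitinib. The gefitinib arrays lay just below the DMSO arrays, and the change was -0.34 ± 0.10 (adjusted p = 0.0204). This call was lost without DMSO replicate 1, DMSO replicate 2 or gefitinib replicate 2, with adjusted p up to 0.0759. POLR1B, the other large catalytic subunit beside POLR1A, was at 4.75, 5.79 and 5.75 with DMSO, 4.89, 5.61 and 5.42 with gefitinib, 5.16, 5.32 and 5.19 in co-culture, and 4.98, 5.33 and 5.57 in co-culture with gefitinib. These groups overlapped, at a signal close to background, and the 95% interval of the change ran from -0.71 to 0.47. POLR1A, the largest subunit, was similarly dim and had a change of 0.28 ± 0.23 (adjusted p = 0.357). Among 13 other RNA polymerase I factors in the wider list 7 fell and 0 rose, with a median of -0.44.

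Small subunit factors fell in 6 of 10 cases, with a median of -0.45. NOP14, which joins the early small subunit particle, stood at 8.15, 8.09 and 8.14 with DMSO, 7.28, 7.45 and 6.94 with gefitinib, 7.92, 7.98 and 7.97 in co-culture, and 7.6, 7.74 and 7.54 in co-culture with gefitinib. Its groups did not overlap, and it fell by 0.90 ± 0.12 with gefitinib alone (adjusted p = 8.77e-05). BYSL, bystin, a later small subunit factor, was at 9.34, 9.56 and 9.34 with DMSO and at 8.67, 8.32 and 8.84 with gefitinib. In co-culture BYSL was at 9.4, 9.24 and 9.24, and with gefitinib there at 9.33, 9.21 and 9.24, so that only the drugged monoculture stood apart. Its change in monoculture was -0.80 ± 0.13 (adjusted p = 0.000405).

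IMP4, a protein of the U3 particle that prepares the small subunit cleavages, was at 11.08, 11.1 and 11.16 with DMSO, 10.73, 10.45 and 10.67 with gefitinib, 10.98, 10.99 and 10.95 in co-culture, and 10.67, 10.79 and 10.83 in co-culture with gefitinib. Both drugged groups of IMP4 overlapped each other and lay below the undrugged ones, and its change in monoculture was -0.50 ± 0.09 (adjusted p = 0.00104). HEATR1 (-0.49 ± 0.11) and WDR75 (-0.41 ± 0.11), which act on rRNA transcription and early processing, also fell, WDR75 not without DMSO replicate 1 (adjusted p = 0.0504) or gefitinib replicate 3 (adjusted p = 0.0512). RRP9, a U3 snoRNA-binding protein, was dim, at 5.59, 5.58 and 5.58 with DMSO, 5.4, 4.75 and 4.68 with gefitinib, 4.98, 5.1 and 5.46 in co-culture, and 4.6, 5.16 and 5.27 in co-culture with gefitinib. Every other group of RRP9 lay below the DMSO arrays. Its change of -0.63 ± 0.21 passed (adjusted p = 0.0337) and was lost without any 1 of 5 arrays of the compared groups, all but gefitinib replicate 1.

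The 4 small subunit genes that did not pass were RRP12, NOB1, TSR1 and UTP20. RRP12, an export factor of the small subunit, was at 8.35, 8.44 and 8.32 with DMSO and 8.37, 8.48 and 8.36 with gefitinib, and its change was 0.04 ± 0.09, with a 95% interval from -0.17 to 0.24. NOB1, the endonuclease that matures the end of the small subunit rRNA, was at 7.53, 8 and 7.93 with DMSO, 7.48, 7.55 and 7.97 with gefitinib, 8, 8.24 and 7.34 in co-culture, and 7.39, 7.26 and 7.62 in co-culture with gefitinib. The arrays of NOB1 spread widely within groups, and the interval of its change, -0.65 to 0.34, spans the median change of all members. TSR1, a factor of late small subunit particles, had a change of -0.24 ± 0.15 (adjusted p = 0.23). UTP20, a component of early particles, had -0.25 ± 0.20 and was detected on 5 of 12 arrays.

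Large subunit factors fell in 10 of 10 cases, from -0.55 to -1.53, with a median of -0.80. BOP1, which forms the PeBoW complex with PES1 and WDR12, stood at 10.83, 11.11 and 10.77 with DMSO, 9.41, 9.36 and 9.35 with gefitinib, 10.69, 10.59 and 10.77 in co-culture, and 9.95, 10.06 and 10.04 in co-culture with gefitinib. The drugged groups did not overlap with each other or with the undrugged ones. BOP1 fell by 1.53 ± 0.10, to 34.6% of the DMSO level (adjusted p = 4.77e-07). WDR12 (-0.81 ± 0.11) and PES1 (-0.55 ± 0.13), its partners, fell less.

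MRTO4, a placeholder for a protein of the ribosomal stalk, was at 8.73, 8.88 and 8.86 with DMSO, 7.66, 7.72 and 7.62 with gefitinib, 8.62, 8.73 and 8.69 in co-culture, and 8.42, 8.05 and 8.22 in co-culture with gefitinib. Its drugged monoculture stood lowest and its drugged co-culture in between, with a change of -1.16 ± 0.10 in monoculture (adjusted p = 4.17e-06). RRS1, which helps to bring the small rRNA of the large subunit into the particle, was at 8.19, 8.51 and 8.34 with DMSO, 7.24, 7.27 and 7.4 with gefitinib, 8.2, 8.22 and 8.06 in co-culture, and 7.83, 7.93 and 8.05 in co-culture with gefitinib. It fell by 1.05 ± 0.11 (adjusted p = 1.2e-05), and its drugged co-culture arrays lay between. NOP16, a nucleolar large subunit factor, was at 9.04, 9.18 and 9.19 with DMSO, 8.31, 8.11 and 8.15 with gefitinib, 9.27, 8.81 and 8.8 in co-culture, and 8.78, 8.88 and 8.8 in co-culture with gefitinib. For NOP16 the co-culture groups overlapped each other and lay above the drugged monoculture, and its change in monoculture was -0.95 ± 0.13 (adjusted p = 9.82e-05).

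NOP2, a methyltransferase of the large subunit rRNA, was at 11.35, 11.36 and 11.41 with DMSO, 10.56, 10.49 and 10.71 with gefitinib, 11.15, 11.17 and 11.09 in co-culture, and 10.89, 10.95 and 11 in co-culture with gefitinib. Its 4 groups did not overlap, and it fell by 0.79 ± 0.08 (adjusted p = 1.9e-05). A dimmer NOP2 probe had a change of 0.12 ± 0.25, the 1 case among 12 genes with several probes where a probe had the other sign in this comparison. NIP7 (-0.76 ± 0.10), RRP1B (-0.70 ± 0.13) and PPAN (-0.62 ± 0.20), all of the large subunit branch, fell as well. The PPAN call, whose transcript can read through into a neighbouring gene, was lost without DMSO replicate 1, DMSO replicate 2 or gefitinib replicate 1, with adjusted p up to 0.12.

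Of 5 nucleolar regulators 4 fell. LYAR, a nucleolar zinc finger protein of proliferating cells, had the largest fall of the 35 genes. Its levels were 10.08, 10.09 and 10.11 with DMSO, 8.46, 8.32 and 8.34 with gefitinib, 10.09, 10.02 and 10.01 in co-culture, and 9.45, 9.49 and 9.79 in co-culture with gefitinib. The undrugged groups of LYAR overlapped, the drugged monoculture stood far below them, and the drugged co-culture lay between. LYAR fell by 1.72 ± 0.10, to 30.3% of the DMSO level (adjusted p = 1.87e-07).

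NOLC1, which chaperones snoRNPs, was at 8.07, 7.86 and 7.97 with DMSO, 7.06, 7.16 and 7.04 with gefitinib, 7.59, 7.58 and 7.79 in co-culture, and 7.43, 7.42 and 7.21 in co-culture with gefitinib. Its groups did not overlap and the change was -0.88 ± 0.10 (adjusted p = 3.27e-05). NCL, nucleolin, an abundant nucleolar RNA-binding protein, was at 12.26, 12.04 and 12.03 with DMSO, 11.36, 11.7 and 11.5 with gefitinib, 11.97, 11.71 and 11.98 in co-culture, and 11.86, 11.84 and 11.84 in co-culture with gefitinib. The drugged monoculture of NCL lay below the other 9 arrays, and the change was -0.59 ± 0.11 (adjusted p = 0.00152). DDX21, an RNA helicase that couples transcription and rRNA processing, was at 11.2, 11.04 and 11.23 with DMSO and 10.48, 10.43 and 10.55 with gefitinib, a change of -0.67 ± 0.09 (adjusted p = 9.18e-05). MYBBP1A, a nucleolar MYB-binding protein, was at 6.02, 6.13 and 6.4 with DMSO and 6.12, 5.79 and 6 with gefitinib. Those groups overlapped, and its change of -0.22 ± 0.17 did not pass (adjusted p = 0.335).

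Of the wider list of 127 other measured biogenesis genes 71 fell and 4 rose, with a median of -0.38. The 4 largest falls among them were NOC2L, a large subunit factor (-1.41 ± 0.20), the exosome subunits EXOSC8 (-1.35 ± 0.21) and EXOSC2 (-1.24 ± 0.12), and TAF1A, of the RNA polymerase I promoter factor (-1.24 ± 0.21). Of 12 genes of the RNA exosome, which trims and degrades rRNA precursors, 9 fell. The 4 rises were WDR74 (0.79 ± 0.28), ZNF622 (0.38 ± 0.10) and NOP53 (0.37 ± 0.10), all of the large subunit branch, and the helicase DDX47 (0.36 ± 0.09). WDR74 missed the threshold without any 1 of 7 arrays, among them all 3 gefitinib arrays, with adjusted p up to 0.171.

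Of 66 genes for proteins of the cytosolic ribosome itself 7 fell and 3 rose, with a median of -0.03. Of 73 mitochondrial ribosomal protein genes 39 fell and 2 rose, with a median of -0.29. RNA polymerase III genes fell in 6 of 20 cases and rose in 0, with a median of -0.17. Over all genes 19.7% fell and 21.1% rose. DNA replication genes, which mark cycling cells, fell in 28 of 30 cases with a median of -1.28. Their part in the result for ribosome biogenesis was not tested.

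MYC stood at 10.86, 10.84 and 10.95 with DMSO, 9.88, 10.12 and 9.95 with gefitinib, 10.96, 11.04 and 11.01 in co-culture, and 10.72, 11.02 and 10.79 in co-culture with gefitinib. The drugged monoculture of MYC lay below all other arrays. It fell by 0.90 ± 0.10 in monoculture (adjusted p = 2.65e-05), and the change in co-culture was -0.16 ± 0.10 (adjusted p = 0.314). Of its antagonists, MXD1 rose by 0.65 ± 0.12, MXD4 by 1.77 ± 0.11 and MNT by 0.47 ± 0.10 in monoculture, while MXD3 fell by 0.50 ± 0.14 (adjusted p = 0.0147) and MXI1 did not pass (0.44 ± 0.22, adjusted p = 0.135). Among the measured genes with a promoter entry, the 11 with an E-box had a median change of -0.63 (from -1.16 to -0.22). The 18 without one had a median of -0.54 (from -1.72 to 0.28). NOP58, RRP12, BOP1, RRS1, RRP1B and NOLC1, without an entry, are in neither set. Outside ribosome biogenesis 19.8% of genes with an E-box fell and 19.5% of those without. The part of MYC or of the E-box in the falls was not tested.

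**Figure D3:**
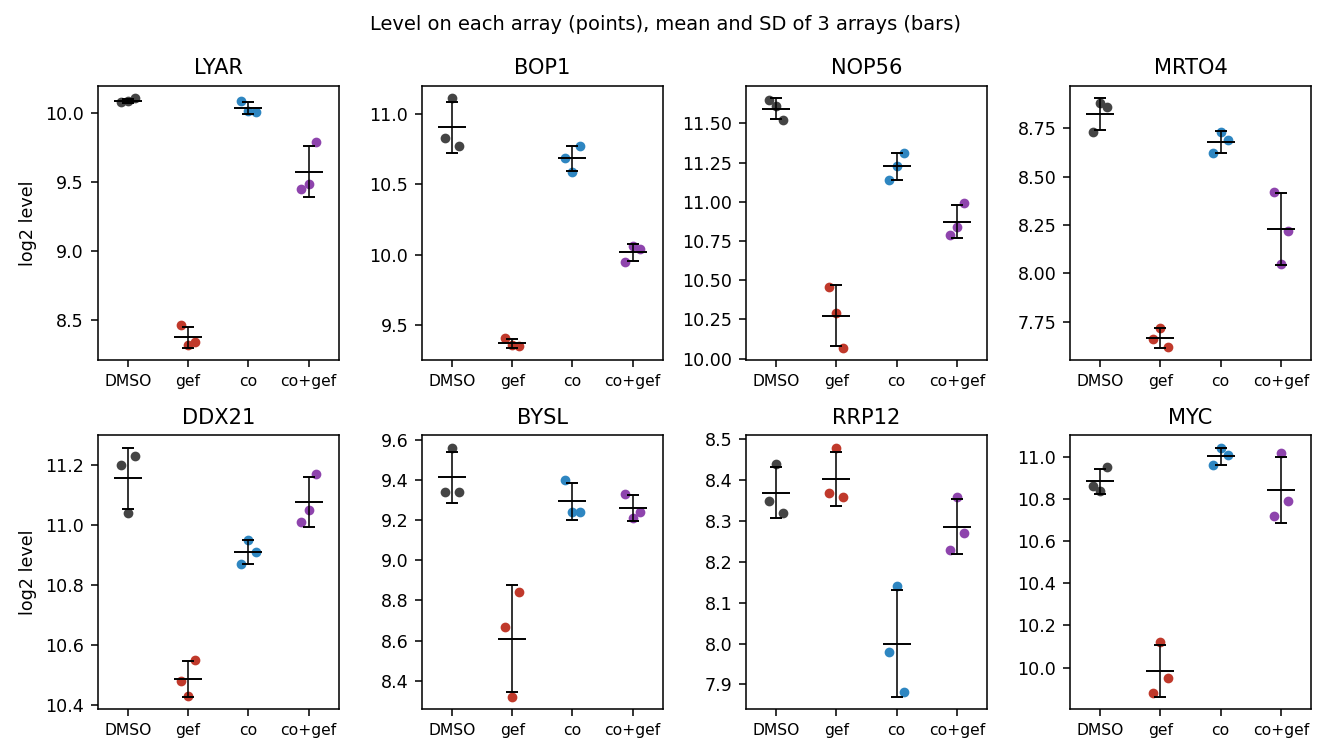
Log2 level of 7 ribosome biogenesis genes and MYC on each array, by group (gef, gefitinib; co, co-culture); points are arrays, and bars give the mean and SD of 3. The drugged monoculture is lowest in every panel but that of RRP12, where the co-culture without drug is lowest, and each panel has its own axis that does not start at 0.

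Many of these genes start back to back with a neighbour on the opposite strand. A divergent start within 1000 bases was found for 16 of 29 measured genes with a promoter entry (55.2%), against 22.6% of 10426 measured protein-coding genes. Of those 16 neighbours 8 were measured, 0 fell with gefitinib alone and 4 rose, with 19.7% of all genes lower and 21.1% higher. A set of 8 genes is too small to set against these shares. YIPF3, a Golgi protein whose start lies 163 bases from that of POLR1C, rose by 0.89 ± 0.09. PARP3, 459 bases from RRP9, rose by 0.82 ± 0.09, and VMA22, an assembly factor of the proton pump 216 bases from IMP4, rose by 0.82 ± 0.10.

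HIGD2A, 153 bases from NOP16, rose by 0.32 ± 0.10, but its value was 0.01 with median scaling in place of quantile normalization, and without DMSO replicate 1 or 3 or gefitinib replicate 1 its adjusted p was up to 0.0645. For the measured neighbour closest to a falling gene, ZBTB49 at 97 bases from LYAR, the change was 0.37 ± 0.20 (adjusted p = 0.165). EMC1 beside MRTO4 had a change of 0.11 ± 0.13, COG8 beside NIP7 0.00 ± 0.24 and MED20 beside BYSL -0.10 ± 0.09, none past the threshold. Starts were taken from RefSeq GRCh38.p14.

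**Figure D4:**
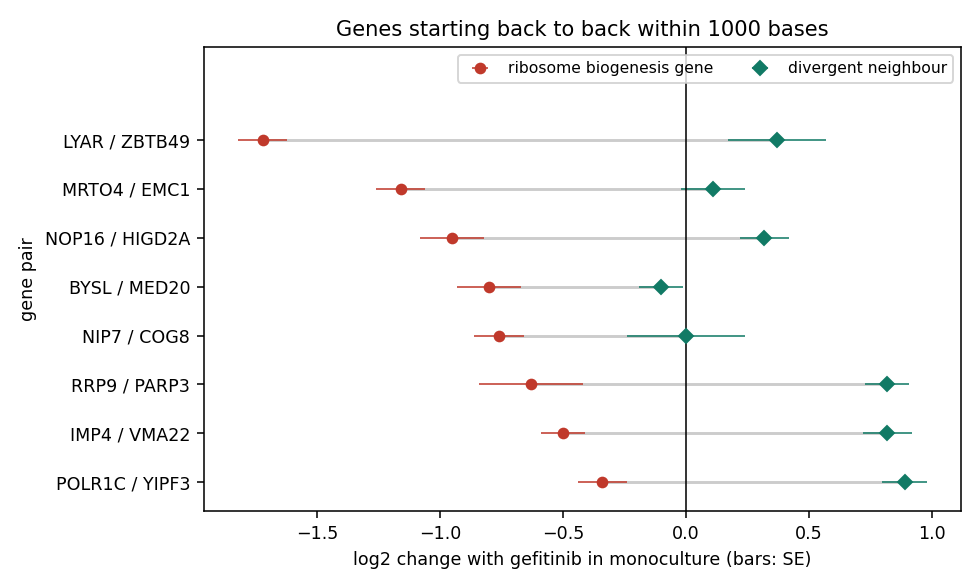
Log2 change with gefitinib in monoculture for 8 ribosome biogenesis genes (circles) and their divergent neighbours starting within 1000 bases (diamonds), with the SE of the fit as bars. All 8 circles lie at -0.34 or below, and the diamonds run from -0.10 to 0.89.

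The second comparison asked how the same genes responded to gefitinib beside fibroblasts, drugged against undrugged co-culture. Here 7 of 35 fell and 1 rose, with 9.17% of all genes lower and 10.9% higher, and the median change was -0.19. The 7 were BOP1 (-0.67 ± 0.10), WDR12 (-0.59 ± 0.11), LYAR (-0.46 ± 0.10), MRTO4 (-0.45 ± 0.10), PES1 (-0.43 ± 0.13), FBL (-0.38 ± 0.10) and NOP56 (-0.35 ± 0.11), with limma adjusted p from 0.000775 to 0.0448. All 3 genes of the PeBoW complex are among them. Fitted by single probes, 1 of 3 dimmer probes of GAR1 (-0.63 ± 0.13, limma adjusted p = 0.00663) and 2 of 3 of NHP2 (-0.30 ± 0.09 and -0.40 ± 0.11) also passed, where the brightest probe of each gene did not. PES1 lost the call without any 1 of the 6 co-culture arrays (adjusted p up to 0.126), NOP56 without 9 different arrays in turn, among them 5 of those 6 (up to 0.137), and FBL without drugged co-culture replicate 1 (0.0582). Without drugged co-culture replicate 1 the count was 4, without replicate 2 of that group 5, and without undrugged co-culture replicate 1 also 5. With median scaling, under which all genes had a median of 0.13, 1 gene was lower and 1 higher.

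RRP12 was the gene that rose. It was at 7.98, 8.14 and 7.88 in co-culture and 8.23, 8.36 and 8.27 with gefitinib there, a rise of 0.29 ± 0.09 (adjusted p = 0.0471). The undrugged co-culture arrays of RRP12 lay below all other 9, so the rise started from a lower level. This call was lost in 15 of the alternatives, with adjusted p up to 0.156. In the wider list 15 of 127 fell, led by RRP1 (-0.68 ± 0.11), EXOSC7 (-0.50 ± 0.10), POLR1F (-0.48 ± 0.15) and PIH1D1 (-0.48 ± 0.09), and DDX47 rose by 0.42 ± 0.09. POLR1F lost the call without any 1 of 9 arrays, among them 5 of the 6 co-culture arrays, with adjusted p up to 0.148. The DNA replication genes fell in 19 of 30 cases, with a median of -0.44, and 2 of 66 ribosomal protein genes fell.

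**Figure D5:**
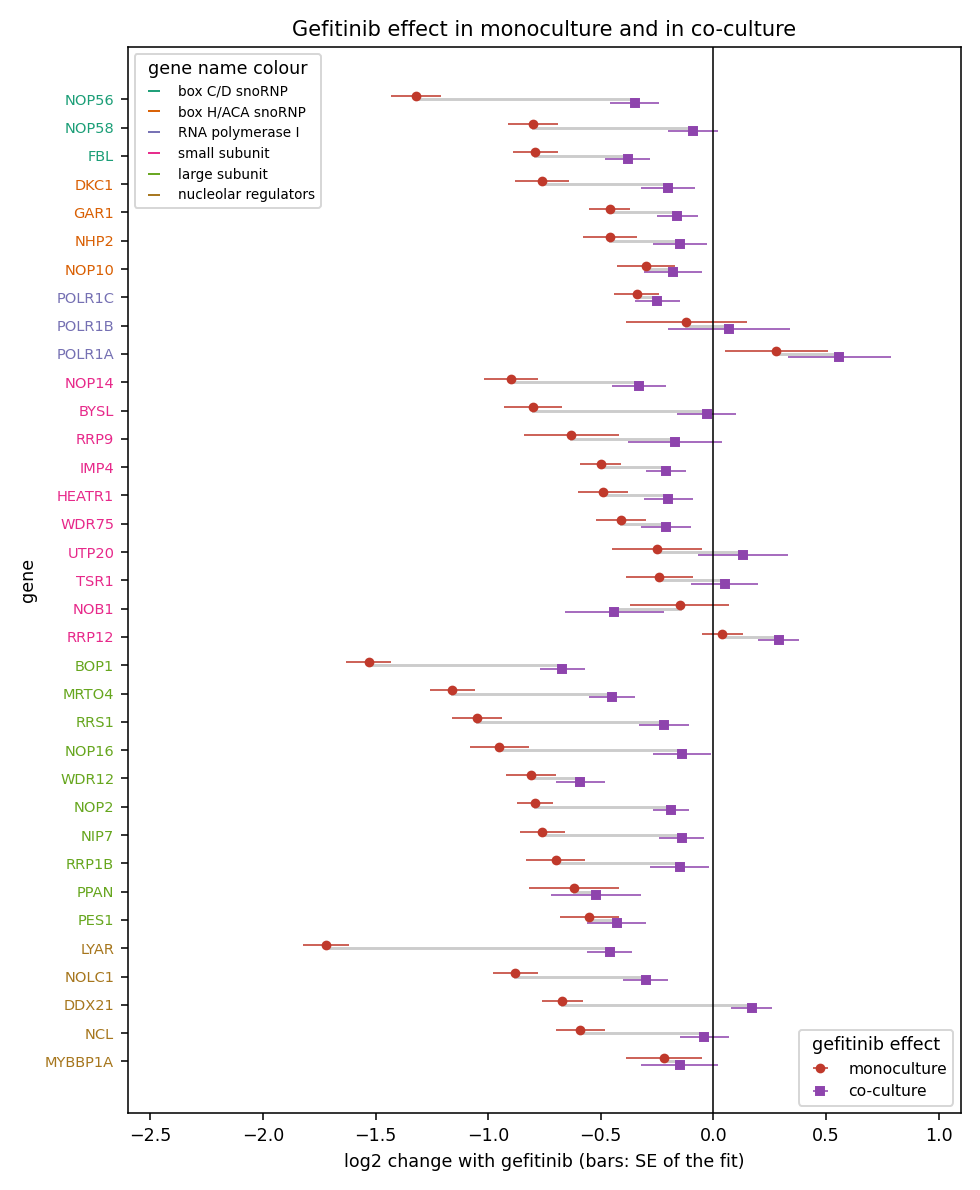
Log2 change with gefitinib in monoculture (circles) and in co-culture (squares) for the 35 genes, with the SE of the fit as bars and gene names coloured by role. For LYAR the change runs from -1.72 to -0.46 and for DDX21 from -0.67 to 0.17, whereas both symbols of PES1 lie close together.

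The test of the difference between both gefitinib effects compared those responses directly. It was called for 12 of 35 genes, in each case with the more negative change in monoculture, and 3.94% of all genes differed in that direction and 3.34% in the other. The median difference was 0.41, against -0.01 over all genes. LYAR had the largest difference, 1.26 ± 0.14 (adjusted p = 0.0011), followed by NOP56 (0.96 ± 0.16), BOP1 (0.86 ± 0.14) and DDX21 (0.84 ± 0.13). DDX21 was at 10.87, 10.95 and 10.91 in co-culture and 11.01, 11.05 and 11.17 with gefitinib there. Its drugged co-culture thus lay above its undrugged one, with a change of 0.17 ± 0.09 (adjusted p = 0.226).

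By role, the difference was called for 2 of 3 box C/D genes, 6 of 10 large subunit genes, 3 of 5 nucleolar regulators, 1 of 10 small subunit genes (BYSL) and for 0 of 4 box H/ACA and 0 of 3 polymerase genes. These counts depend on the processing. DKC1, NOP14 and NCL missed the threshold (limma adjusted p = 0.0695, 0.0645 and 0.0691) but passed in 5 alternatives each, and FBL passed in 3. The polymerase genes POLR1A and POLR1B lie near background. By the brightest probe of each gene, the difference was called for BOP1 and for neither of its PeBoW partners. The other probe of WDR12 passed, with a difference of 0.57 ± 0.15 (limma adjusted p = 0.0481). The difference for WDR12 by its brightest probe was 0.22 with a 95% interval from -0.13 to 0.57, and that for PES1 was 0.12 with an interval from -0.29 to 0.53. All 27 genes that fell in monoculture had a less negative change in co-culture, but they were picked for that fall, so the direction gets no test. MYC differed by 0.74 ± 0.14 (adjusted p = 0.013). In the wider list 14 of 127 differed, all with the more negative change in monoculture, led by TAF1A (1.25 ± 0.29), EXOSC3 (0.93 ± 0.14), UTP15 (0.91 ± 0.22) and EXOSC2 (0.89 ± 0.17), while DNA replication genes did in 23 of 30 cases and ribosomal protein genes in 2 of 66. TAF1A and UTP15 missed the threshold without 1 array in 6 and 7 of 12 cases, with adjusted p up to 0.0619 and 0.0719.

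Between both drugged groups, co-cultured cells had 14 of 35 genes higher (40%) and 0 lower than cells alone, with 7.1% of all genes higher and 6.36% lower. This comparison shares its drugged monoculture arrays with the first, so both move with the same 3 arrays. LYAR was higher by 1.21 ± 0.10 (adjusted p = 4.52e-05), 2.31-fold. BYSL (0.65 ± 0.13) and BOP1 (0.64 ± 0.10) followed, then NOP16 (0.63 ± 0.13) and RRS1 (0.63 ± 0.11). The count was 9 without drugged co-culture replicate 2 or without replicate 3 of that group. The drugged co-culture mean lay below the DMSO mean in 33 of 35 genes, a count without a share over all genes beside it. That difference holds both the drug and the co-culture. Undrugged co-culture alone had a mean below DMSO in 26 of 35 genes, and in 6688 of all 13514 genes. The mean over the 35 was 8.81 ± 0.0559 (SD, n = 3) in drugged co-culture. In 23 genes the 3 drugged monoculture arrays lay below all other 9 arrays, as in 11.2% of all genes.

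In the wider list 19 of 127 were higher and 0 lower in drugged co-culture, led by EXOSC2 (0.86 ± 0.12), TAF1A (0.82 ± 0.21), EXOSC8 (0.79 ± 0.21) and EXOSC3 (0.77 ± 0.10). TAF1A and EXOSC8 each missed the threshold without any 1 of 4 drugged arrays, with adjusted p up to 0.0802 and 0.106. DNA replication genes were higher in 27 of 30 cases and ribosomal protein genes in 2 of 66. MYC was higher by 0.86 ± 0.10 (adjusted p = 0.000402). Of 16 fibroblast markers 9 were measured, with a summed intensity of 5650 to 7140 in drugged monoculture and 5650 to 7060 in drugged co-culture. COL3A1, LUM, THY1 and PDGFRB were detected on 0 of 12 arrays. DCN and COL6A3 were each detected on 2 of 3 arrays of drugged co-culture, and on 1 and 0 of 3 of drugged monoculture. Of the 9 markers 4 were higher and 5 lower in drugged co-culture, with 0 past the threshold.

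The last comparison set undrugged co-culture against DMSO. By limma 0 of 35 genes passed in either direction, where 0.118% of all genes were lower and 0.237% higher. Of the wider list 0 of 127 passed, with 14 lower and 4 higher at an unadjusted p under 0.05, and 1 passed without background correction, with the authors' values or with the filter at detection p-values under 0.01. The difference for MYC was 0.12 ± 0.10 (adjusted p = 0.712). At an unadjusted p under 0.05, 6 genes were lower and 0 higher, with 5.23% of all genes lower. Those 6 were NOP56, RRP12, NOP2, NIP7, DDX21 and NOLC1, named after their values were seen. The arrays did not overlap for 12 genes, all lower in co-culture, as for 8.23% of all genes in that direction and 9.28% in the other. These values rest on the brightest probes. Of 12 genes with several probes, 8 had a dimmer probe of the other sign. Among them were NCL (0.10 against -0.22 by the brightest), NOP14 (0.01 against -0.17) and WDR12 (-0.17 against 0.08).

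The largest differences were those of PPAN, RRP9 and RRP12. PPAN was at 6.39, 6.63 and 6.33 with DMSO and 7.19, 6.54 and 6.87 in co-culture, and with gefitinib at 5.4, 6.12 and 5.98 alone and 6.42, 6.14 and 6.49 in co-culture. Its undrugged groups overlapped, with a difference of 0.42 ± 0.20 (adjusted p = 0.458). RRP9 differed by -0.40 ± 0.21 and RRP12 by -0.37 ± 0.09 (adjusted p = 0.137). MYBBP1A was at 6.2, 6.24 and 6.57 in co-culture and 6.39, 6.31 and 5.87 with gefitinib there, overlapping with its levels in monoculture. The median over the 35 genes was -0.14, and their mean level was 9.00 ± 0.0215 (SD, n = 3). Summed fibroblast marker intensity was 8660 to 8870 in co-culture and 6330 to 7840 with DMSO. S100A4 made up 66.8% to 81.8% of this sum on the 12 arrays, and the other 8 markers summed to 1580 to 1870 in co-culture and 1560 to 1630 with DMSO. The brightest of these 8 were FBLN1, at a mean log2 level of 10.17 in co-culture and 9.96 with DMSO, and VIM, at 8.57 and 8.67. Their sum therefore says little of the dimmer markers. Among the dimmer markers DCN was detected on 0 of 3 arrays of either group, and COL1A2 on 1 of 3 of each. COL6A3 was detected on 1 of 3 in co-culture and 0 of 3 with DMSO, whereas PRRX1 was on 0 and 1 and TWIST1 on 2 and 3. COL1A1 was detected on every array of both groups, at a mean of 5.84 in co-culture and 5.32 with DMSO (limma adjusted p = 0.484). Of the 9 markers 5 were higher and 4 lower in co-culture, with 0 past the threshold. The part of these levels in the differences was not tested.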

How the data were processed

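The deposited table of unprocessed values gives, per the file headers, a signal and a detection p-value per probe and array. The signals are on a linear intensity scale, and the deposited detection p-values come with no stated method. A second deposited table holds intensity values normalized by the authors by a method not given in the sources used here. Its scale is linear, each of its columns matched its own array best (12 of 12), and its column medians were 101.7 to 103.1.

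Using neqc from limma 3.58.1 (R 4.3.3, offset 16), signals were background-corrected, quantile-normalized and put on the log2 scale. Quantile normalization gives every array the same distribution, so changes are relative to all genes, and the offset shrinks changes of dim genes. The brightest passing probe stood for each gene. The 7221 passing probes without 1 gene name were left out. limma fitted the 4 group means jointly on 12 arrays (8 residual and 3.3 prior degrees of freedom), and the SE comes from this fit. Tests were two-sided with Benjamini-Hochberg adjustment, and the procedure was tested on simulated data.

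Every gene of the list is accounted for. Per-array values are given for the 8 largest and the 4 smallest changes with gefitinib in monoculture, the 4 largest differences between both effects, the 3 largest changes in each co-culture contrast and the brightest gene of each role. From the wider list the 4 largest falls and rises per contrast among those past the threshold were named, and MYC always. Genes and lists were chosen with earlier results of these data known. The ETS motif, the window at the start and the divergent neighbours were added after the values had been seen.

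Alternatives changed the background correction (none), the scaling (median), the input (the values the authors normalized), the filter (none, or detection p-values under 0.01), the probe summary (mean), or the model (replicate block, weighted arrays, fits of the compared groups alone). Others asked for a fold of at least 1.5 or left out each array in turn. Replicate numbers were checked for pairing: deviations of same-numbered arrays correlated at -0.0383 to 0.0389 across genes, so the numbers were not treated as pairs. Such correlations cannot exclude a pairing. A slide block was not fitted, since no slide labels were used here, so a slide effect stays unknown.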

Additional observations from a re-analysis of the deposited data

Results flagged for a closer look

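The gefitinib effect in co-culture differed from that in monoculture, by the limma test of the difference itself, for 12 of the 35 genes. The differences, co-culture minus monoculture on the log2 scale, were 0.96 for NOP56, 0.71 for NOP58, 0.77 for BYSL, 0.86 for BOP1, 0.60 for NOP2, 0.81 for NOP16, 0.82 for RRS1, 0.62 for NIP7, 0.71 for MRTO4, 0.84 for DDX21, 0.58 for NOLC1 and 1.26 for LYAR. In each the change was more negative in monoculture. Of these, NOLC1 lost the call in 11 alternatives, BYSL in 8, NOP16 in 3, NIP7 in 3 and NOP2 in 1. Among the uncalled genes, DKC1, NOP14 and NCL gained it in 5 alternatives each and FBL in 3.

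The same test passed for 14 genes of the wider list. The RNA polymerase I factors TAF1A and POLR1D differed by 1.25 and 0.46. The small subunit factors UTP15, PNO1 and LTV1 differed by 0.91, 0.77 and 0.58. For the large subunit factors the values were 0.86 for SBDS, 0.83 for RPF2, 0.80 for NOC3L, 0.71 for URB2 and 0.52 for BRIX1. The exosome subunits EXOSC3, EXOSC2 and EXOSC6 differed by 0.93, 0.89 and 0.55, and the snoRNP assembly factor ZNHIT6 by 0.51. MYC differed by 0.74, and of its antagonists MXD1 by -1.03 and MXD4 by -0.75, while MXD3 (0.33, limma adjusted p = 0.361), MNT (-0.38, 0.136) and MXI1 (-0.47, 0.415) did not pass. Leaving out 1 of the 12 arrays at a time, POLR1D lost the call in 12 cases, LTV1 and ZNHIT6 in 11 each, BRIX1 in 10, UTP15 in 7, TAF1A in 6, EXOSC6 in 5 and URB2 in 2, with adjusted p up to 0.103.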

How the results depend on the processing

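No called change of the 35 genes, the wider list, MYC, MXD1, MXD4 or the called divergent neighbours reversed its direction under the alternatives run. Uncalled values could: in co-culture BYSL, NCL and NOP58 went from -0.03, -0.04 and -0.09 to 0.13, 0.06 and 0.06 with median scaling. Counts follow in this order: the drug in cells alone, the drug in co-culture, undrugged co-culture, drugged co-culture against drugged cells alone, and the difference of both drug effects. Without 1 array at a time, 23 to 27, 4 to 8, 0 to 0, 9 to 13 and 8 to 13 of the 35 genes were called, and 64 to 77, 9 to 17, 0 to 0, 11 to 19 and 8 to 12 of the wider list. The medians then ran from -0.66 to -0.62, -0.21 to -0.16, -0.16 to -0.12, 0.27 to 0.34 and 0.37 to 0.49. The wider list's count of 16 in co-culture was 9 without undrugged co-culture replicate 1. Its count of 19 in drugged co-culture was 12 without drugged monoculture replicate 3 and 11 without drugged co-culture replicate 3. Its count of 14 for the difference was 8 without DMSO replicate 1, drugged monoculture replicate 3, or drugged co-culture replicate 2 or 3, and 9 without DMSO replicate 2 or undrugged co-culture replicate 3.

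With the replicate number as a block, the numbers not being pairs, 25, 6, 0, 12 and 10 of the 35 genes were called, and 70, 12, 0, 16 and 7 of the wider list.

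Under median scaling the all-gene median was -0.12, 0.13, -0.10, 0.19 and 0.29, and the share of lower genes among the calls from 48.4% to 67%, 45.7% to 16.3%, 33.3% to 64.7%, 47.3% to 8.85% and 45.9% to 4.92%. The medians of the 35 genes were then -0.84, -0.05, -0.26, 0.57 and 0.69, which relative to all genes is -0.72, -0.18, -0.16, 0.38 and 0.40. It left 2 of the 35 called in co-culture and 21 for the difference, and of the wider list 1 in co-culture, 52 in drugged co-culture and 43 for the difference. Without background correction the medians were -0.48 in monoculture, 0.23 in drugged co-culture and 0.30 for the difference, and with the authors' values -0.46, 0.23 and 0.28. These settings called 22 of the wider list each for the difference and 1 each in undrugged co-culture, as did the strict filter (1), and the authors' values called 26 in co-culture. Without a filter 5 of the 35 were called in co-culture. A fold of at least 1.5 left 20 of the 35 for the drug in cells alone, 2 in co-culture, 8 in drugged co-culture and 11 for the difference. Of the wider list it left 36, 1, 5 and 9 in these 4 comparisons with calls. With only the compared groups 11 of the wider list were called in drugged co-culture. The cause of these shifts was not tested. Dim probes (POLR1A, POLR1B, RRP9, UTP20) lie near background, which limits what a change in them can show.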
